A study of Caenorhabditis elegans with 2 samples.

Results

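The genes described here are those of Caenorhabditis elegans that encode enzymes and subunits acting on chromatin, taken as the protein-coding genes whose symbol begins with set-, mes-, met-, hda-, jmjd- or swsn- in the WBcel235 annotation. There were 61 of them among 19973 protein-coding genes: 38 set-, mes- and met- genes, 8 hda- genes, 8 jmjd- genes and 7 swsn- genes. The study mapped the binding of CEH-83, the product of a homeobox gene, with ChIP-seq, the sequencing of DNA fragments pulled down with a protein, in whole embryos of mixed stages and mixed sex, with an age label of 1 hour, collected by bleaching. All embryos came from 1 strain, OP727, which carries the mutation unc-119(tm4063) together with the integrated transgene wgIs727, in which ceh-83 is fused at its C-terminal end to TY1, EGFP and 3xFLAG tags beside a rescuing unc-119(+) gene. The labels describe an antibody against GFP, while the antibody field itself reads ceh-83. There was 1 group of 2 biological replicates and no second genotype or treatment, so no test compares samples.

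Each replicate came with a list of 30000 regions, and the 2 replicates pooled gave another 30000. The authors then kept 1258 peaks by IDR (irreproducible discovery rate), a method that retains ranked regions recurring between replicates. These peaks were the 1258 highest regions of the pooled list, and the lowest of them had a signal of 189.6. A gene is called bound below if an IDR summit lay between 1000 bp upstream and 200 bp downstream of its start. The background is the genes with any pooled summit in that window, since only these could have been bound. No untagged animals enter the comparison, so "bound" means an IDR peak, and whether CEH-83 itself occupied the site was not tested. The signal is the authors' own value for a region and serves here only to rank regions within 1 list. The depth is unknown, because the lists and labels carry no read totals. In whole embryos, occupancy in a few cells and weaker occupancy in many cannot be told apart.

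Chromatin modifiers write, erase and read the chemical marks on histones, and remodellers use ATP to move nucleosomes. Most set-, mes- and met- genes encode proteins with a SET domain, which transfers methyl groups to lysines. In C. elegans MES-2, MES-3 and MES-6 form the Polycomb complex that methylates histone H3 for repression, and MES-4 and MET-1 methylate it on transcribed genes. The hda- genes encode histone deacetylases, the jmjd- genes Jumonji-domain proteins of which many remove methyl groups, and the swsn- genes subunits of the SWI/SNF remodelling complexes. The rule on symbols also takes in mes-1, whose product is a membrane protein resembling a receptor kinase and not a chromatin protein.

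CEH-83 peaks were found at 6 of these promoters: swsn-3, jmjd-1.2, mes-2, set-30, set-20 and met-1. The 6 were among 33 of the 61 genes that had a pooled summit in the window, a share of 18.2% (95% Clopper-Pearson interval 6.98 to 35.5). Of all protein-coding genes with a pooled summit, 603 of 7129 were bound, which is 8.46% (7.82 to 9.13). The share of all genes thus lay inside the interval for the chromatin genes. These intervals cover counting error over genes only, and genes that share a peak are not independent. A pooled summit was present at 54.1% of the chromatin genes (40.8 to 66.9), against 35.7% of all protein-coding genes, which lay outside that interval. Counted without the need for a pooled summit, 9.84% of the 61 chromatin genes and 3.02% of all protein-coding genes were bound. The median of the highest pooled signal per window was 130.6 over the 33 chromatin genes, against 112.4 over all 7129 genes. None of these differences was tested.

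The bound genes fell into 3 of the 4 classes. Among the set-, mes- and met- genes 4 of 20 with a pooled summit were bound (20%, 5.73 to 43.7), namely mes-2, set-30, set-20 and met-1. Among the jmjd- genes it was 1 of 3 (33.3%, 0.840 to 90.6), and among the swsn- genes 1 of 5 (20%, 0.505 to 71.6). Of the hda- genes 0 of 5 were bound, with an interval of 0 to 52.2%. With so few genes per class the intervals overlap throughout, and no order of the classes can be read from them. The median pooled signal was 128.1 in the set-, mes- and met- class, 109.5 in the hda- class, 183.5 in the jmjd- class and 172.8 in the swsn- class.

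**Figure D1:**
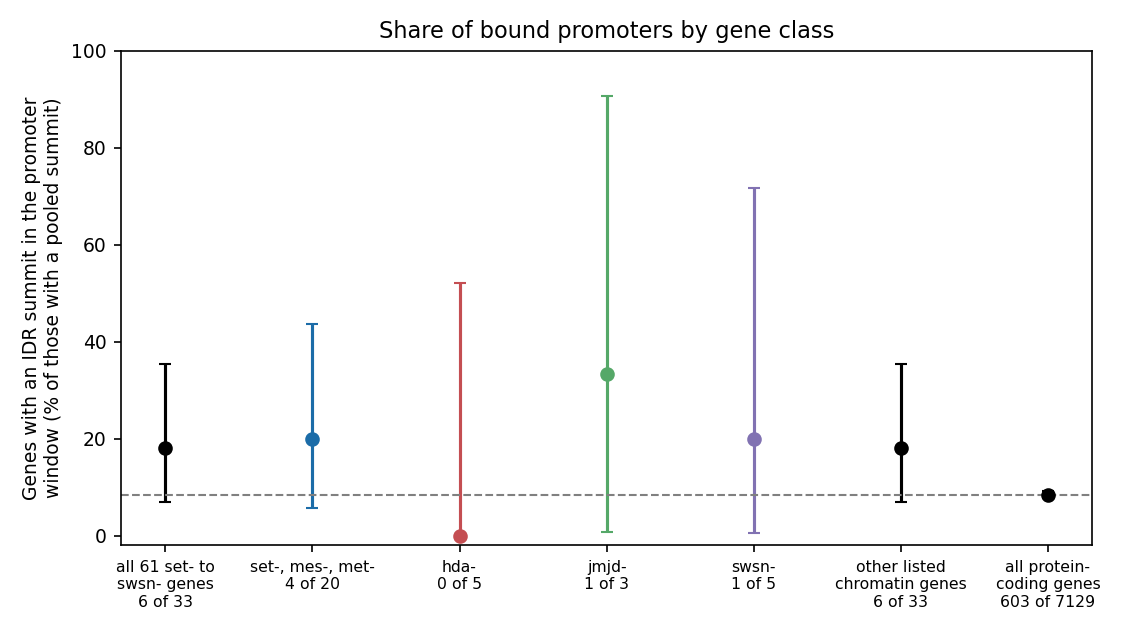
Share of genes with an IDR summit in the promoter window, in percent of those with a pooled summit there, for the 61 chromatin genes, their 4 classes, 53 other listed chromatin genes and all protein-coding genes. Points are shares, bars are 95% Clopper-Pearson intervals, and the dashed line marks 8.46%, which lies inside the interval of every class.

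The peak of swsn-3 was the highest of the set. SWSN-3 is an accessory subunit of SWI/SNF with an HMG domain, related to mammalian BAF57. Its peak spanned III 2768619 to 2769062 (ce11) with a pooled signal of 446.2, rank 146 of the list, and its summit stood 162 bp upstream of the gene start. Replicate 1 had a signal of 223.6 there, at rank 128, and replicate 2 a signal of 225.7, at rank 156. Both replicates therefore placed it among their 200 highest regions. The summit was intergenic with respect to swsn-3 and its upstream neighbour laf-1, and lay in an annotated intron of cox-6B. No other protein-coding gene had this summit in its window.

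The peak of jmjd-1.2 ranked second among these genes. JMJD-1.2 is a histone demethylase of the PHF8 family that removes methyl groups from histone H3. Its peak spanned IV 4660460 to 4660903 with a pooled signal of 248.4 at rank 488, and its summit stood 309 bp upstream. Replicate 1 had a signal of 133.9 at rank 380, and replicate 2 a signal of 113.1 at rank 878, with the same summit base in both. The peak lay between jmjd-1.2 and F29B9.11, which starts 790 bp away on the opposite strand. It also counted for F29B9.11, from whose start the summit was 481 bp upstream, so the peak cannot be assigned to 1 of these genes.

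The peak of mes-2 was next. MES-2 is the catalytic subunit of the worm Polycomb complex and is the homologue of Enhancer of zeste. Its peak spanned II 14383668 to 14384111 with a pooled signal of 233.1 at rank 587, and the summit stood 83 bp upstream. Replicate 1 had a signal of 116.9 at rank 539, and replicate 2 a signal of 111.3 at rank 933, with its summit 54 bp further along. The upstream neighbour, sdz-26, ends 593 bp from the gene start and is on the same strand. Its partners in the complex had no IDR summit: mes-3 had a pooled signal of 125.7 at rank 8242, and mes-6 had no pooled summit in the window.

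The bound genes set-20 and set-30 are both on the X chromosome. The peak of set-20 spanned X 5686127 to 5686570, with a pooled signal of 205.7 at rank 909 and a summit 191 bp upstream. Replicate 1 had a signal of 112.2 at rank 606. The nearest region of replicate 2, with its summit 18 bp away, had a signal of 75.8 at rank 5405, and the highest region of replicate 2 in the window had 88.3 at rank 2695. The first pair of ranks was the pair furthest apart between replicates among the 6 bound genes. The tandem neighbour set-19, which begins 104 bp past the end of set-20, had no summit in its window in any list. SET-30 belongs to the SMYD group of SET-domain proteins. The summit of set-30 was in its own coding sequence, 14 bp downstream of the gene start, within X 4999062 to 4999505. The pooled signal was 215.6 at rank 780. Replicate 1 had a signal of 110.0 at rank 663, and replicate 2 a signal of 108.7 at rank 1034.

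The sequences at the summits of swsn-3, jmjd-1.2, mes-2 and set-20 are printed to show which short motifs stood at each summit and where. Each runs 75 bp to either side of the summit, 5′ to 3′ on the strand of the gene, from the RefSeq sequence of WBcel235. They lie at chrIII:2768766-2768916 (minus strand), chrIV:4660607-4660757 (plus), chrII:14383815-14383965 (plus) and chrX:5686274-5686424 (minus). Capitals mark matches within 50 bp of the summit to the homeodomain-type motif TAATTA, the repeat motif GAGAGA read on either strand, or the palindromic motif CACGTG.
swsn-3: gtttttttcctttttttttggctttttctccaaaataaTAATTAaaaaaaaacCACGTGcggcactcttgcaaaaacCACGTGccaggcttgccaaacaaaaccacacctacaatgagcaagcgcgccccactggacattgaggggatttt
jmjd-1.2: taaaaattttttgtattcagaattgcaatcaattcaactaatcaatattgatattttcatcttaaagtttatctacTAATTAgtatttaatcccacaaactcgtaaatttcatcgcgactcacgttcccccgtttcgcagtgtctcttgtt
mes-2: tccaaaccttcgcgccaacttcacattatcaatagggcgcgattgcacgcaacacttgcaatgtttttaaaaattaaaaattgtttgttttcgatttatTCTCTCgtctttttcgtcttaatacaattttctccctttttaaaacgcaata
set-20: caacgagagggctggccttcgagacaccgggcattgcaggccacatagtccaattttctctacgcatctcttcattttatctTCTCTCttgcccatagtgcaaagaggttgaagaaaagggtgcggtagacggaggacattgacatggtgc

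TAATTA contains TAAT, a core recognised by many homeodomains. It occurred within 50 bp of 2 of the 6 summits, those of jmjd-1.2 and swsn-3, on either strand. At jmjd-1.2 it covered bases 1 to 6 past the summit, and at swsn-3 bases -37 to -32, before it. The sequence was in 10 of 469 windows around all IDR summits in promoters (2.13%), and in 344 of 6863 windows around the other pooled summits in promoters (5.01%). At the 27 chromatin genes with a pooled but no IDR summit it was in 6 windows (22.2%). A match of 6 letters is a description and not a bound site, and these shares were not tested.

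GAGAGA was within 50 bp of 3 of the 6 summits, those of mes-2, set-20 and met-1, against 14.7% of all IDR summits in promoters and 8.04% of the other pooled summits in promoters. At mes-2 the match lay 24 to 29 bases past the summit and at set-20 it lay 7 to 12 bases past it. GGGCGG, which Sp1-type zinc fingers bind, occurred in 0 of 6 windows, against 7.68% of all IDR summits in promoters. CACGTG, a sequence that many basic helix-loop-helix proteins bind, was looked for only after the swsn-3 window had been read. It occurs in that window at 2 places, starting at base -22 and at base 2 from the summit, and in none of the other 5. It was in 2.56% of all IDR summit windows in promoters. The TAAT core alone was in 3 of the 6 windows, against 39.7% of all IDR summit windows in promoters and 59.7% of the other pooled summit windows in promoters. At the 27 unbound chromatin genes TAAT was in 55.6% of windows. The content of G and C in these windows was 40.3% ± 8.89 (SD over 6 windows), against 45.6% ± 9.30 over all 469 and 37.9% ± 9.07 over the 6863. At jmjd-1.2 it was 27.7%, the lowest of the 6, and at met-1 49.5%, the highest.

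The last bound gene was met-1, whose product methylates histone H3 on transcribed genes, as yeast Set2 does. Its summit stood in the 5′ UTR, 74 bp downstream of the gene start, within I 4254049 to 4254492. The pooled signal was 194.9 at rank 1117, close to the end of the IDR list. Replicate 1 had a signal of 96.5 at rank 1107, and replicate 2 a signal of 98.8 at rank 1612, just past the 1258 highest. The upstream gene C43E11.12 ends 57 bp before met-1 on the same strand.

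**Figure D2:**
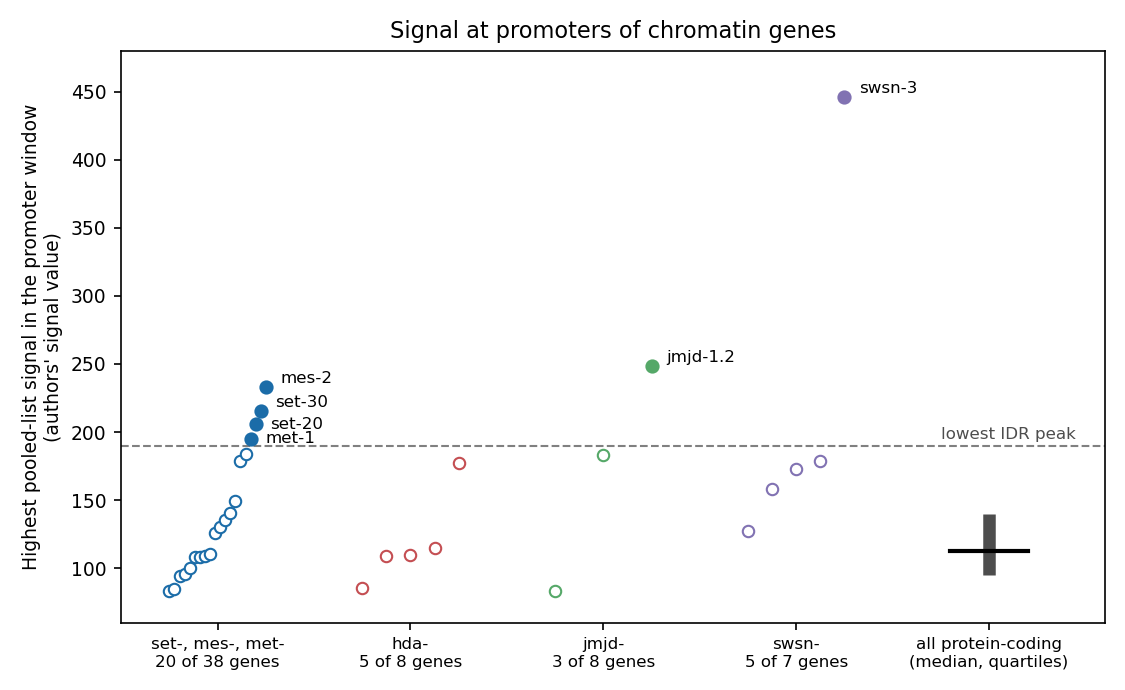
Highest pooled-list signal (authors' value) in the promoter window of each chromatin gene that has one, by class, beside the median and quartiles over all protein-coding genes with a pooled summit. Filled points have an IDR summit and open points do not. The dashed line is the lowest IDR peak (189.6), and swsn-3 at 446.2 stands apart from the other bound genes, which lie between 194.9 and 248.4.

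All 6 peaks were away from small RNA genes and in unique sequence. The nearest tRNA, snoRNA or snRNA gene was 21679 bp from the summit at set-20 and further away at the others, up to 90952 bp at mes-2. Every word of 31 bases within 100 bp of each of the 6 summits occurred once in the genome (171 of 171 words at each). Each peak was 444 bp wide, the usual width in the list, and each window held 1 IDR summit. In all 6 cases the chromatin gene had the nearest protein-coding gene start. The median summit position was -122.5 bp (negative is upstream) for the 6 genes, against -274 bp for all 603 bound genes. Of the 603, 289 shared their summit with another gene, against 1 of the 6, so the medians compare unlike sets. Of the 6 summits 4 were upstream of the gene start, against 555 of the 603. These positions were not tested.

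**Figure D3:**
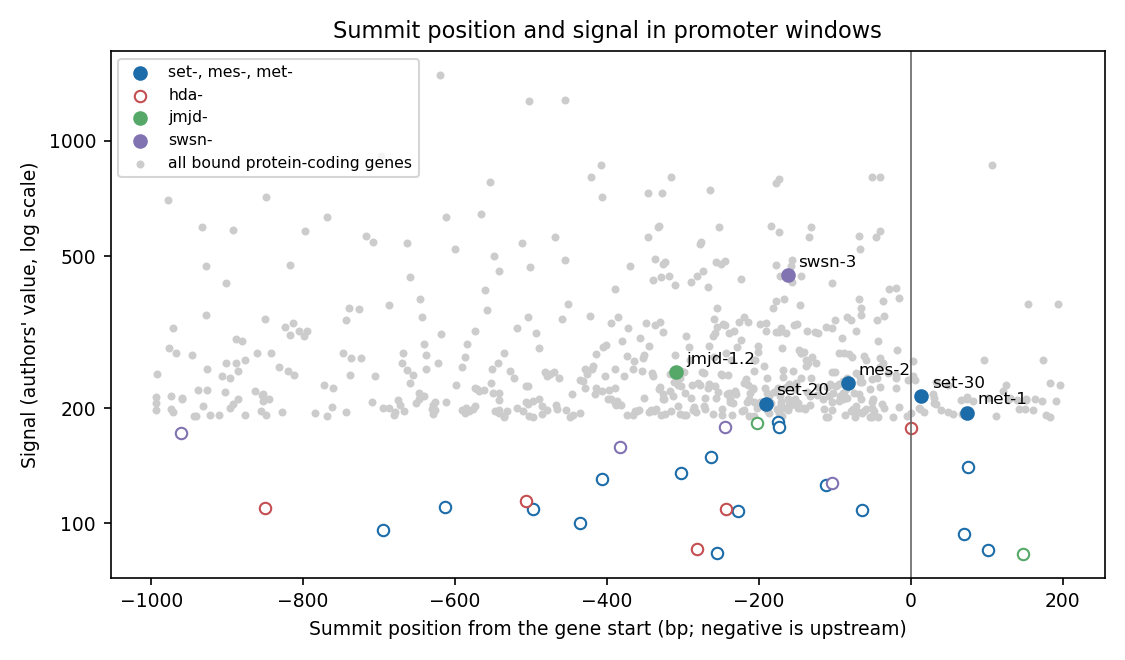
Summit position from the gene start in bp (negative is upstream) against signal on a log axis, for the 33 chromatin genes with a pooled summit and, in grey, for all 603 bound protein-coding genes. Filled points have an IDR summit and open points do not. The 6 bound chromatin genes lie between 309 bp upstream (jmjd-1.2) and 74 bp downstream (met-1).

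A further 27 chromatin genes had a pooled summit in the window but no IDR summit, with signals from 83.3 to 184.1 and a median of 114.8. Just under the threshold stood set-16, the worm homologue of the MLL3 and MLL4 methyltransferases, with a pooled signal of 184.1 at rank 1433 and a summit 175 bp upstream. It was followed by jmjd-4 with 183.5 at rank 1458, set-21 with 178.9 at rank 1635, the actin-related SWI/SNF subunit gene swsn-6 with 178.4 at rank 1657, and hda-10 with 177.4 at rank 1705. The nearest bound gene above them was met-1 with 194.9. Of these 5, all but hda-10 share their upstream sequence with a gene on the opposite strand, though the share of such pairs over all genes was not counted. The gaps between gene bodies were 253 bp between set-21 and the ribosomal protein gene rpl-7A, 228 bp between swsn-6 and perm-3, 258 bp between jmjd-4 and mev-1, and 345 bp between set-16 and drr-2. The summit of hda-10 was 1 bp from its gene start. In the window of set-21, 87.1% of the words of 31 bases around the summit were unique, and at the other 4 genes all were.

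Of these 5 genes, 3 had a region among the 1258 highest of 1 replicate and not of the other. At set-21 replicate 1 had a signal of 65.1 at rank 6986, and replicate 2 a signal of 117.3 at rank 773. At set-16 replicate 1 had a signal of 104.1 at rank 822, and replicate 2 a signal of 79.8 at rank 4314. At jmjd-4 replicate 1 had a signal of 102.4 at rank 875, and replicate 2 a signal of 87.5 at rank 2818. The summits stood at -202 bp and -364 bp in overlapping regions, and whether they mark the same site was not tested. For set-21 the higher rank was thus in replicate 2, and for set-16 and jmjd-4 in replicate 1. At swsn-6 the ranks were 3508 and 2307, and at hda-10 they were 1765 and 3272, in replicates 1 and 2.

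The replicate lists had 4 of the 6 bound genes at the top in common. All 6 bound genes had their higher rank in replicate 1. Among the 1258 highest regions of replicate 1, 8 of the 33 chromatin genes with a summit of that list had one in the window, against 8.6% of all genes. These were the 6 bound genes with set-16 and jmjd-4. In replicate 2 it was 5 of 30, against 8.02% of all genes, namely swsn-3, set-21, jmjd-1.2, mes-2 and set-30. The IDR summits of 4 genes (swsn-3, jmjd-1.2, mes-2 and set-30) had a summit within 100 bp among the 1258 highest of both replicates. Over all genes with a pooled summit the share with such a match was 5.11%. Across the 27 chromatin genes with a summit in both lists, the ranks had a Spearman rho of 0.718, against 0.566 across 4953 protein-coding genes. The summits compared were within 100 bp of each other for 19 of the 27 and for 3559 of the 4953. The other ranks belong to summits further apart, and whether those mark the same site was not tested. Genes are not independent replicates, and both lists were made against 1 control alignment.

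**Figure D4:**
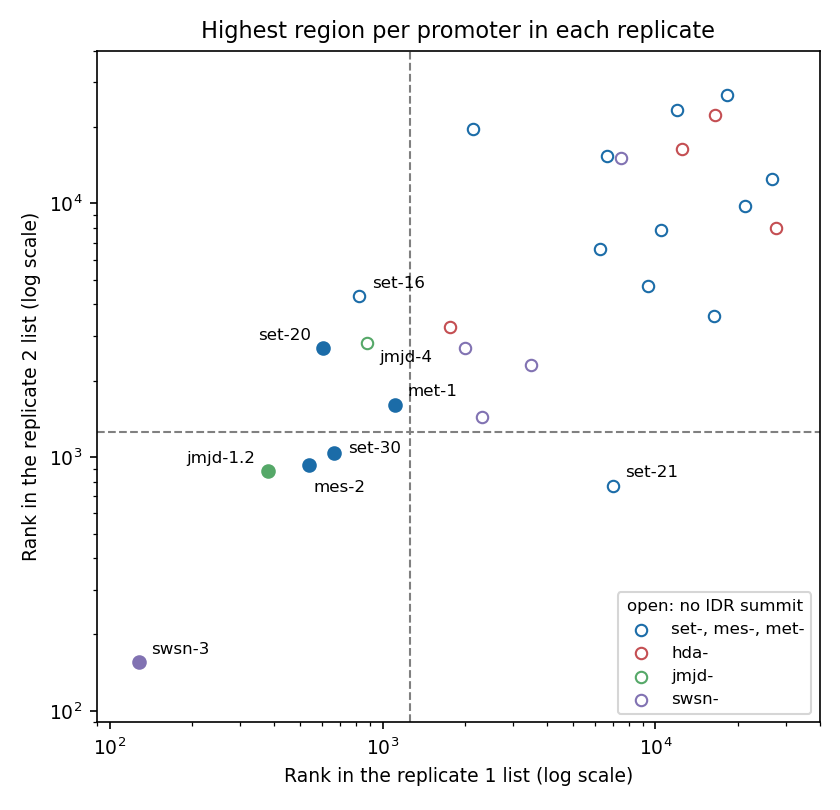
Rank of the highest region in the promoter window in the replicate 1 list and in the replicate 2 list, both on log axes, for the 27 chromatin genes with a summit in both, of which 19 have the 2 summits within 100 bp. Filled points have an IDR summit in the pooled reads, and dashed lines mark rank 1258. The gene swsn-3 ranks 128 and 156, while set-21 ranks 6986 in replicate 1 and 773 in replicate 2.

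The remaining set-, mes- and met- genes had signals under 150. The gene set-4, for a methyltransferase of histone H4, had a pooled signal of 149.6 at rank 3829, and set-2, for the worm SET1 enzyme of the COMPASS complex, had 135.2 at rank 5961. At set-2 replicate 1 had rank 2136 with its summit at -317 bp, and replicate 2 rank 19672 with its summit at -532 bp. The germline methyltransferase gene mes-4 had 100.5 at rank 17955, and mes-1 had 110.2 at rank 13403. The 7 others, set-29, set-26, set-10, set-6, set-3, set-1 and set-31, had signals between 94.0 (set-31) and 140.8 (set-29). The lowest of the 27 were set-24 with 85.1, set-25, for an enzyme of heterochromatin, with 83.5, and jmjd-5 with 83.3. These 3 had no summit in the replicate 2 window. At set-25 only 17.5% of the words of 31 bases around the summit were unique, with up to 19 copies of a word in the genome.

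The deacetylase genes other than hda-10 had pooled signals on both sides of the median of all genes, 112.4. The class I deacetylase genes hda-1, hda-2 and hda-3 had pooled signals of 85.7, 114.8 and 108.8, at ranks 27022, 11651 and 13982. Of these hda-2 lay at the median of the 27 unbound chromatin genes, hda-3 lay near the median of 109.2 over all unbound genes, and hda-1 was among the 4 lowest of the 27. For hda-1 there was no summit of replicate 2 in the window. The class IV gene hda-11 had 109.5. No pooled summit was found for hda-4, hda-5 and hda-6. The gene hda-2 begins 70 bp from the end of swsn-7 on the same strand, so its window lies mostly within swsn-7 and its summit, 507 bp upstream, is in that neighbour.

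Of the 7 SWI/SNF genes with a swsn- symbol only swsn-3 had an IDR summit in the promoter window. The gene of the ATPase, swsn-4, had no pooled summit in its window, and neither did swsn-2.2. The core subunit gene swsn-1 had a pooled signal of 158.5 at rank 2874, swsn-7 had 172.8 at rank 1928 and swsn-9 had 127.7 at rank 7689. For swsn-1 replicate 1 had rank 2313 with its summit at -97 bp, and replicate 2 rank 1444 with its summit at -448 bp. These regions overlap, and whether the summits mark the same site was not tested. An IDR summit with a signal of 217.3 lay inside the body of swsn-1, in a coding exon 7945 bp from the gene start and 2920 bp from the nearest transcript start (V 20241321 to 20241764).

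The other 28 chromatin genes had no pooled summit in the window. They comprised 18 set-, mes- and met- genes, 3 hda- genes, 5 jmjd- genes and 2 swsn- genes. Among them were mes-6, met-2, which encodes a methyltransferase of the SETDB1 kind, the KDM4 homologue jmjd-2, and the 3 genes jmjd-3.1, jmjd-3.2 and jmjd-3.3. In 25 of the 28 no list held a summit there. For set-12 replicate 1 alone had one, at rank 21686, and for set-17 and set-18 replicate 2 alone had one, at ranks 20275 and 29928. Near but outside the windows, IDR summits stood at -1506 bp from the start of set-1 (signal 230.7), at -1501 bp from that of swsn-2.2 (195.4) and at 2151 bp past that of set-8 (379.2). The summit near set-1 lay in the window of its divergent upstream neighbour jhdm-1, at -599 bp from that start. An IDR summit with a signal of 299.4 in an intron of set-18, 2487 bp from its start, lay on the tRNA gene T22A3.t1, where 69.0% of the words of 31 bases were unique.

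By chromosome, 1 of 6 genes with a pooled summit was bound on I, against 12.0% of all genes there. It was 1 of 6 on II (all genes 7.10%), 1 of 7 on III (10.3%) and 1 of 4 on IV (7.85%). On V it was 0 of 6, an interval of 0 to 45.9%, against 5.51% of all genes, and on X 2 of 4, against 8.52%. These counts are too small to order the chromosomes. By orientation, 3 of the 6 bound genes have an upstream neighbour on the opposite strand and 3 on the same strand. The 27 unbound genes with a pooled summit split into 14 and 13. Orientation ignores distance, and the gap to the opposite-strand neighbour is 6240 bp at set-20 and 1671 bp at set-30. The split over all protein-coding genes was not counted, so no trait of the bound genes can be read from it. Several pooled summits stood in the window of 12 of the 33 chromatin genes, against 1297 of 7129 genes in all.

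Chromatin genes outside the symbol rule were counted from a hand-picked list of 53. It was chosen with earlier results of these data known, so its count depends on the genes picked and is no independent repeat. All 53 were found in the annotation, 33 had a pooled summit, and 6 of these were bound (18.2%, 6.98 to 35.5), against 8.46% of all genes. The highest was cbp-1, for the CBP/p300 acetyltransferase, with a signal of 584.0 at rank 77, its summit at -892 bp, and a second IDR summit in the window. Its ranks were 94 in replicate 1 and 72 in replicate 2. The Polycomb-like ubiquitin ligase gene spat-3 had 361.9 at rank 213 and also 2 IDR summits. The MBT-repeat gene lin-61 had 287.7 and shared its peak with bub-1, and the chromodomain gene mrg-1 had 267.2 and shared its peak with spcs-2. The remodelling ATPase genes ssl-1 and chd-1 had 235.6 and 219.4. Among the listed genes without an IDR summit were let-418, lin-53, lin-40 and sin-3, with pooled signals of 150.1, 89.7, 106.6 and 181.9. Of these sin-3, at rank 1525, stood just under the lowest IDR signal of 189.6. Closer still among the listed unbound genes was cfp-1, with 186.7 at rank 1356. The genes named without an IDR summit were picked from the list, so no share for a complex can be read from them. The median pooled signal over the 33 was 128.9.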

How the data were processed

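ChIP-seq region lists from 2 biological replicates of 1 group were used. Per the deposited file listing, 1 relaxed list came from each replicate alignment and 1 from both pooled, each against a control alignment, with the IDR list built from all of them on assembly ce11. Neither the peak caller nor the IDR threshold is named in those sources. The signal of a region is the deposited value from the authors and is not comparable across lists. A further deposited score, meant as a q-value, was negative in 95.3% of the pooled list and was left unused. Summits came from the authors' summit column.

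Genes were taken from Ensembl release 115 on WBcel235, the same assembly, with symbols from RefSeq by WormBase identifier (19962 of 19973 protein-coding genes matched). No region passed a chromosome end. Analyses used Python 3.11.15, pandas 2.3.3 and scipy 1.17.1. With 1 group, shares carry exact 95% Clopper-Pearson intervals and nothing was tested. The window search was tested on simulated summits. All bound genes were named, with the 5 highest and 3 lowest unbound ones and IDR summits in gene bodies; the other unbound genes were named by role after their values were seen. The genes and lists were chosen with earlier results of these data known. Alternatives changed the window, the gene start, the peak set and the replicates.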

Additional observations from a re-analysis of the deposited data

How the results depend on the processing

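The same 6 genes were bound with a window shortened to 500 bp before and 100 bp after the gene start, with any overlap of an IDR region with the window, with any transcript start, with RefSeq gene starts and without summits at small RNA genes. Their share of genes with a pooled summit was then between 15.8% and 22.2%, against 7.38% to 9.49% of all genes. The 7.38% came from leaving out summits at small RNA genes, where only the IDR list was filtered and the background of 7129 genes was kept. With the 629 highest IDR regions alone, 3 genes were bound (swsn-3, jmjd-1.2 and mes-2), of which 1 was in the set-, mes- and met- class; met-1, set-20 and set-30 were lost, since the list is shorter. The share was 9.09%, against 4.59% of all genes. With summits among the highest regions of both replicates, 4 genes remained, and 2 of the set-, mes- and met- class, without met-1 and set-20; the share was 12.1%, against 5.11% of all genes. Leaving out a replicate made no new IDR call. It took the 1258 highest regions of the other replicate, over genes with a summit in that list, and so restates the replicate counts above. The count ran from 5 to 8, the share from 16.7% (all genes 8.02%) to 24.2% (8.6%), and the jmjd- genes from 1 to 2. Without replicate 1, set-21 was gained, and met-1 and set-20 were lost; without replicate 2, jmjd-4 and set-16 were gained. The hda- genes stayed at 0 bound in all 9 alternatives, and the swsn- genes at 1 in all 9. Settings that only shortened the window or the IDR list could not add a gene, so for the hda- genes 0 was fixed there. Keeping the 6 bound genes was fixed with the shortened window, since their summits stood between -309 bp and 74 bp. It was fixed too with any overlap, which only widens the search. The same holds without summits at small RNA genes, the nearest such gene being 21679 bp away. No paired analysis was possible because there was 1 group. The depth is unknown, so its effect on the calls was not tested.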
